A study of Mus musculus with 5 samples.

Results

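Mural cells are the contractile and supporting cells of the blood vessel wall, pericytes on capillaries and smooth muscle cells on arterioles, arteries and veins. In these data they were the cells that passed a gate on their own marker genes. A cell needed at least 500 detected genes and at most 15% mitochondrial UMIs, where a UMI (unique molecular identifier) stands for 1 captured RNA molecule. It also needed a UMI of at least 3 of 9 mural markers (Rgs5, Notch3, Pdgfrb, Des, Higd1b, Mcam, Ndufa4l2, Rgs4 and Myh11), with Rgs5, Notch3 or Rgs4 among them. It had at least 3 UMIs of the smooth muscle genes Acta2, Tagln and Myl9 summed, under 5 UMIs of the basal keratins Krt5, Krt14 and Krt17 summed, and none of Pecam1, Ptprc or Epcam, which mark endothelium, leukocytes and epithelium. The gate kept 236 of 28588 cells that passed the gene and mitochondrial limits, out of 32472 barcodes.

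The cells came from mammary glands of Frmd3 knockout mice (3 libraries, KO1 to KO3) and wild-type mice (2 libraries, WT1 and WT2), profiled with droplet-based 3′ single-cell RNA sequencing. Frmd3 encodes a FERM domain protein, and the study's title names it a tumor suppressor acting on mammary epithelial cell fate through Notch signalling. The labels give genotype and tissue, and age, strain, sex, the knockout allele and whether any Cre was used are not stated in the labels or the series text. That text counts 5 mice, so each library stands for 1 mouse and p-values measure the spread between mice. The gate found 91, 40 and 15 mural cells in KO1, KO2 and KO3 and 58 and 32 in WT1 and WT2.

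Pericytes share the basement membrane of capillaries with the endothelium, and they are recruited there by endothelial Pdgfb, which signals through the receptor Pdgfrb on the mural cell. Smooth muscle cells shorten when calcium activates myosin light chain kinase (Mylk), which phosphorylates the myosin light chain Myl9, and relax when nitric oxide raises cyclic GMP through soluble guanylate cyclase (Gucy1a1, Gucy1b1). Notch3 is the Notch receptor characteristic of mural cells, and ligands such as Jag1 on neighbouring cells activate it. In the mammary gland a second contractile cell, the basal myoepithelial cell, carries the same smooth muscle actin and squeezes milk out of the alveoli, so it was used here as one comparison, with fibroblasts as the other mesenchymal cell.

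The mural cells gave 718748, 479018 and 130327 UMIs in KO1, KO2 and KO3 and 483140 and 441293 UMIs in WT1 and WT2, with medians per cell of 7168, 11368.5 and 5315 UMIs in the KO and 8696.5 and 11897 UMIs in the WT libraries. Libraries shared 3 to 22 barcodes per pair, none of them a mural cell. Frmd3 did not separate the labels: over all kept cells it had 157, 197 and 43 UMIs (2.12, 3.06 and 1.88 CPM, UMIs per 1000000 UMIs) in the KO and 79 and 202 UMIs (1.45 and 2.33 CPM) in the WT libraries. A 3′ tag can lie outside the deleted part of a gene, and that part is not named in the labels, so this gene (GRCm38, chr4:74013442-74202214, plus strand) cannot check the genotype, and the groups below are the libraries labelled KO and WT. In mural cells Frmd3 had 2, 4 and 0 UMIs in KO and 0 and 2 UMIs in WT libraries, where 3 UMIs correspond to 4.17, 6.26 and 23 CPM in KO and 6.21 and 6.80 CPM in WT libraries. The mural cells of KO3 are 15 cells and the smallest sum, and its heat shock genes Hspa1a and Hspa1b stood at 1166 and 1527 CPM, so results that turn on it are given with and without it. Values of a group are given in the order of its replicate numbers.

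The gate genes are what chose the cells, so their levels describe the cells and test nothing. Among the 236 cells Notch3 was detected in 92.4%, Myh11 in 88.6%, Mcam in 79.2%, Pdgfrb in 79.2%, Rgs4 in 71.2%, Ndufa4l2 in 69.9%, Des in 69.1%, Rgs5 in 47.5% and Higd1b in 28.0%. In leukocytes of the same libraries, where these genes should be silent and free RNA sets the background, the shares were 5.61% for Notch3, 5.83% for Myh11, 2.04% for Rgs5 and 0.189% for Higd1b (median depth 8897 UMIs in mural cells and 4930 in leukocytes). Notch3, a receptor, and Myh11, the smooth muscle myosin heavy chain, were thus the most widely detected, and Higd1b, a pericyte marker, the least. Pdgfrb also reached 61.5% of fibroblasts and Myh11 94.2% of basal cells. A cell carried a median of 7 of the 9 markers. At the limits, 26 members had exactly 3 markers and 45 cells failed with 2, 25 members had 3 to 5 contractile UMIs and 91 cells failed with fewer than 3, and 124 cells failed only through a Pecam1, Ptprc or Epcam UMI. No doublet caller was run, and those last genes are what removed mixed endothelial, leukocyte or epithelial barcodes.

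Markers that the gate did not use bore out most of the label. Summed levels were 331 to 616 CPM per library for 7 pericyte markers and 499 to 1711 CPM for 6 vascular smooth muscle markers, against 42.1 to 84.7 CPM and 1.73 to 4.70 CPM in fibroblasts and 0.694 to 12.6 CPM and 748 to 1414 CPM in basal cells, which share the smooth muscle genes. Other lineages were low: endothelial markers summed to 0 to 92.1 CPM, leukocyte markers to 15.3 to 98.1 CPM, luminal epithelial markers to 38.4 to 229.6 CPM, Schwann cell markers to 0 to 13.6 CPM, skeletal muscle markers to 2.27 to 75.2 CPM, adipocyte markers to 0 to 38.4 CPM and haemoglobins to 0 to 6.80 CPM. Of the basal keratins, Krt5 had no UMI in any library. Fibroblast markers were the exception. They summed to 2696, 12486 and 14126 CPM in KO and 522 and 17784 CPM in WT mural cells, against 19725 to 30342 CPM in fibroblasts.

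That fibroblast signal sat in a minority of cells. Cells with a Pdgfra UMI or at least 5 Dcn UMIs numbered 35 of 236: 11, 10 and 3 in KO1, KO2 and KO3 and 1 and 10 in WT1 and WT2. Pdgfra is the PDGF receptor of fibroblasts and Dcn, decorin, a collagen-binding proteoglycan. Without these 35 collagen-rich cells the fibroblast markers summed to 126 to 1122 CPM per library. Pdgfra and Dcn are among the markers summed, so part of this drop was set by how the cells were picked. The collagen gene Col1a1 had 718, 8056 and 6852 CPM in KO and 257 and 10746 CPM in WT mural cells. KO1 and WT1, with few such cells for their size, were low, and KO2, KO3 and WT2 were high, so the split did not follow genotype. Of the 26 members with exactly 3 markers, 19 were collagen-rich. Collagen-rich cells had a median of 15210.0 UMIs per cell, against 8897 over all members, and whether they are doublets was not tested. Without them 4665 of 12397 genes were called against fibroblasts in place of 3564 of 12271. Of these, 1836 were higher and 2829 lower, in place of 1664 and 1900, and 39.4% of the calls were higher in place of 46.7%. Against basal cells 3050 of 8157 were called in place of 3034 of 8603. Of these, 1482 were higher and 1568 lower, in place of 1621 and 1413, and 48.6% of the calls were higher in place of 53.4%. List counts that moved by over 1.5 times and at least 2 genes in a direction are given both ways below.

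Myh11 divided the mural cells in a similar way. With at least 5 Myh11 UMIs per 10000 UMIs called high, 198 cells were Myh11-high, 11 were low and 27 had no Myh11 UMI. Myh11-high cells numbered 80, 31 and 10 in KO1, KO2 and KO3 and 54 and 23 in WT1 and WT2. Among them the rate ran from 5.15 over a median of 42.8 to 125.9 UMIs per 10000, and 17 cells of all classes lay within 2-fold of the limit. Of the 27 cells without Myh11, 20 were collagen-rich. Of the 35 collagen-rich cells, 26 were not Myh11-high. These 26 pooled to 91.0 CPM of Acta2, 58.5 CPM of Notch3 and 20332 CPM of Col1a1. The 9 that were Myh11-high pooled to 4554, 593 and 3090 CPM, so the collagen-rich cells were not alike. Only 12 cells were neither Myh11-high nor collagen-rich (7 in KO1, 2 in KO3 and 3 in WT1), and pooled Rgs5 was higher in them than in Myh11-high cells. They had 4745 CPM of Rgs5, 597 CPM of Abcc9 and 184 CPM of Kcnj8, against 769.7, 50.4 and 17.4 CPM in the 198 Myh11-high cells. Pdgfrb, Des and Higd1b were also higher in these 12 cells, with Pdgfrb at 643 against 254 CPM. Notch3, Mcam, Ndufa4l2, Rgs4 and the NG2 proteoglycan gene Cspg4 were lower, with Cspg4 at 91.8 against 243 CPM. Abcc9 and Kcnj8 encode the 2 subunits of the ATP-sensitive potassium channel of pericytes. The 17 cells near the limit were 8 in KO1, 3 in KO2, 4 in KO3 and 2 in WT1. They pooled to 2895 CPM of Rgs5, between the 769.7 and 4745 CPM above. By library they lay between in KO1 alone, at 2948 CPM. In KO3 and WT1 they had 4982 and 7087 CPM, above both classes. In KO2 they had 168 CPM, below the 1024 CPM of Myh11-high cells. Whether Myh11-high cells and the rest are separate types was not tested.

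**Figure D1:**
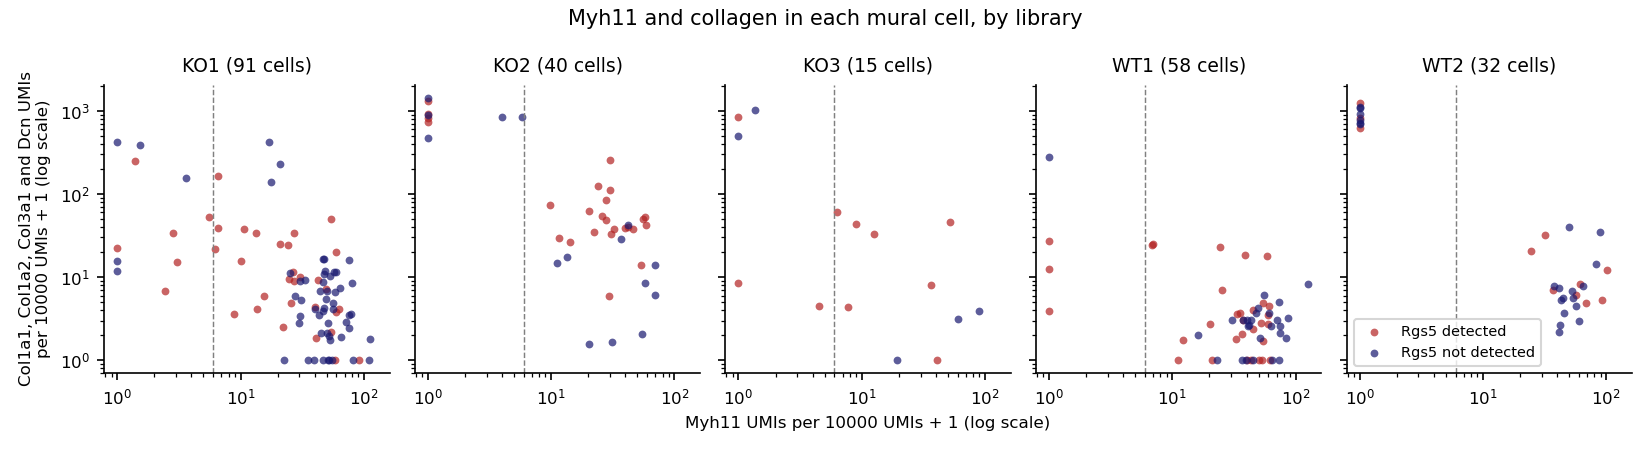
Each point is 1 mural cell, in a panel per library; the x axis is its Myh11 UMIs per 10000 UMIs plus 1 and the y axis its summed Col1a1, Col1a2, Col3a1 and Dcn UMIs per 10000 UMIs plus 1, both on log scales, with red for cells with an Rgs5 UMI, dark blue for cells without one and a dashed line at the limit of 5. Most of the 236 cells form a group right of the line with little collagen, and a second group without Myh11 and with much collagen is seen mainly in KO2, KO3 and WT2.

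Within the 201 members that were not collagen-rich, Rgs5, a regulator of G protein signalling and the best-known pericyte marker, was detected in 99 and not in 102. The shares with Rgs5 were 38.8%, 66.7% and 75.0% in KO1, KO2 and KO3 and 54.4% and 36.4% in WT1 and WT2. This division was drawn after the data were seen, and since Rgs5 is a gate gene it is a description with no test. Cells with Rgs5 were not deeper than the rest, with a pooled median of 6818 UMIs against 8977 UMIs without it, and 34 of the 99 had only 1 or 2 Rgs5 UMIs.

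Part of the pericyte list went with Rgs5. Of 21 tested genes, 8 were higher beside it in all 5 libraries, and 1, the forkhead factor Foxs1, was lower in all 5. Abcc9 stood at 183, 165 and 408 CPM in KO and 93.0 and 46.0 CPM in WT cells with Rgs5, against 14.1, 40.4 and 0 CPM in KO and 0 and 0 CPM in WT cells without it. Kcnj8, its partner subunit, had 80.1, 47.2 and 233 CPM in KO and 21.1 and 0 CPM in WT cells with Rgs5, against 2.36, 0 and 0 CPM in KO and 0 and 0 CPM in WT cells without it. In each library Abcc9 was higher beside Rgs5, and Kcnj8 was higher in 4 of them and at 0 on both sides in WT2. Vtn, vitronectin, a matrix protein made by brain pericytes, had 120.2, 193 and 97.1 CPM in KO and 38.0 and 34.5 CPM in WT cells with Rgs5, against 2.36, 20.2 and 0 CPM in KO and 0 and 0 CPM in WT cells without it. Colec11, a collectin, had 63.0, 179 and 252 CPM in KO and 8.45 and 80.4 CPM in WT cells with Rgs5, against 2.36, 10.1 and 0 CPM in KO and 0 and 0 CPM in WT cells without it. Rgs16, a second regulator of G protein signalling, had 424, 321 and 660.1 CPM in KO and 46.5 and 218 CPM in WT cells with Rgs5, against 0, 10.1 and 0 CPM in KO and 0 and 0 CPM in WT cells without it. These 3 genes stood at 20.2 CPM or less in every library where Rgs5 was not detected. The cytokine gene Il6 had 315, 2273 and 1204 CPM in KO and 511 and 1517 CPM in WT cells with Rgs5, against 245, 131 and 105 CPM in KO and 549 and 292 CPM in WT cells without it, so it was higher beside Rgs5 in every library but WT1. Rgs5 itself was low in WT2, at 68.0 CPM over all its mural cells against 758 to 1228 CPM in the other 4 libraries, and the KO3 side without Rgs5 is 3 cells.

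The contractile genes went the other way. Myh11 had 2879, 2990.4 and 1553 CPM in KO and 3879 and 6412 CPM in WT cells with Rgs5, against 5197, 4469 and 6644 CPM in KO and 5490.3 and 5394 CPM in WT cells without it, and WT2 was the library in which it was higher beside Rgs5. Lmod1, leiomodin, an actin filament nucleator of smooth muscle, had 458, 127 and 97.1 CPM in KO and 435 and 471 CPM in WT cells with Rgs5, against 828, 373 and 633 CPM in KO and 648 and 663 CPM in WT cells without it. Pln, phospholamban, which restrains the calcium pump of the sarcoplasmic reticulum, had 200.3, 9.43 and 0 CPM in KO and 148 and 310.2 CPM in WT cells with Rgs5, against 370.2, 141 and 211 CPM in KO and 329 and 471 CPM in WT cells without it. Both were lower beside Rgs5 in all 5 libraries. Over the contraction list, 0 of 24 genes were higher and 11 lower beside Rgs5 in all 5 libraries, where 7.60% of 6089 genes were higher and 5.16% lower. The counts were 8 higher and 1 lower of 21 pericyte genes, 12 higher and 1 lower of 29 fibrillar matrix genes, 9 higher and 0 lower of 25 MHC class I and interferon genes, 7 higher and 0 lower of 23 chemokine genes, and 0 higher and 16 lower of 27 oxidative phosphorylation genes. No Notch pathway gene of 20 was higher or lower in all 5.

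**Figure D2:**
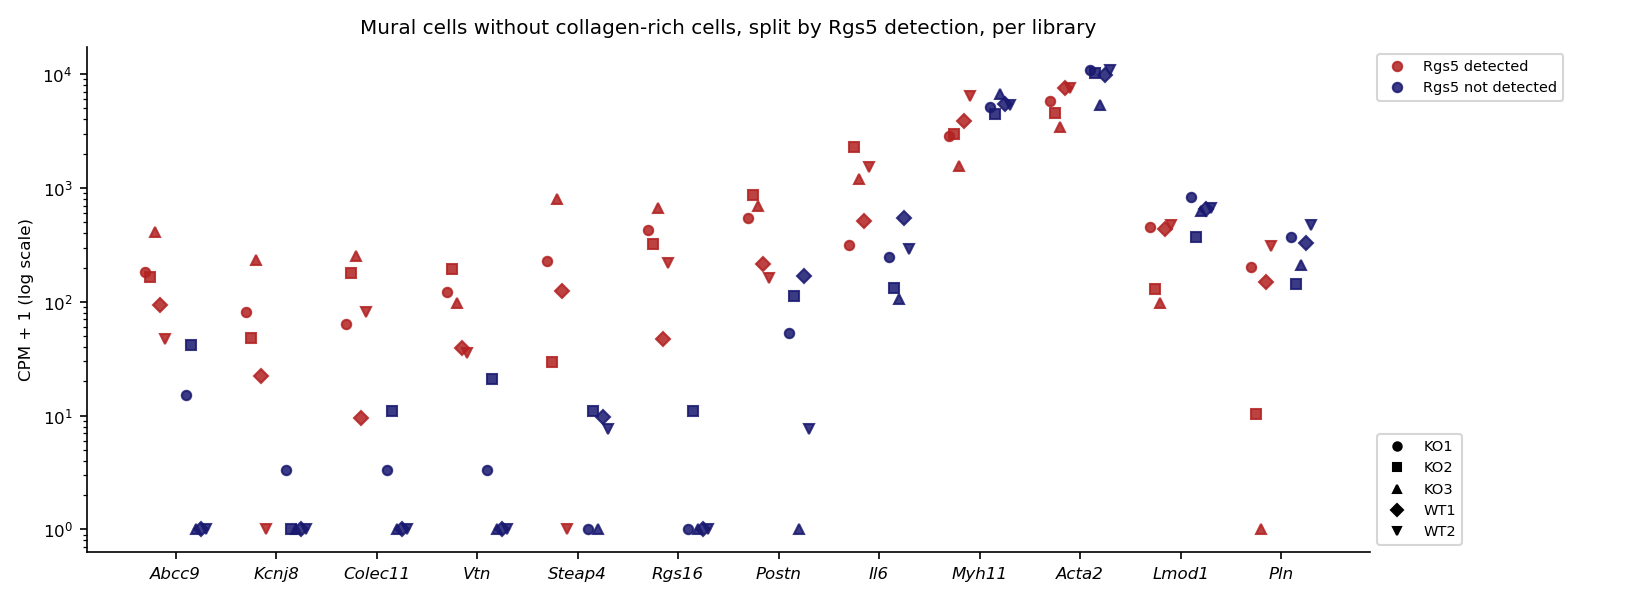
CPM plus 1, on a log scale, of 12 genes in mural cells without the collagen-rich ones, with 1 point per library, red for cells in which Rgs5 was detected (99 cells) and dark blue for cells in which it was not (102 cells), and marker shapes for the libraries. Abcc9, Kcnj8, Colec11, Vtn and Rgs16 sit at 40.4 CPM or less on the side without Rgs5, while Lmod1 and Pln are higher there in every library.

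The share of mural cells did not differ measurably with the genotype label. Mural cells made up 0.878%, 0.86% and 0.658% of kept cells in KO1, KO2 and KO3 and 1.15% and 0.513% in WT1 and WT2. The means were 0.799% ± 0.122 in KO (SD, n = 3) and 0.83% ± 0.447 in WT (SD, n = 2), and the WT libraries enclosed the KO libraries (two-sided exact permutation test, p = 1.0; with 10 splits the smallest possible p is 0.1). The difference of -0.0309 points turned positive without KO3 (0.0394) or without WT1 (0.285). Among mural cells, Myh11-high cells were 87.9%, 77.5% and 66.7% in KO and 93.1% and 71.9% in WT libraries, with means of 77.4% ± 10.6 (SD, n = 3) and 82.5% ± 15 (SD, n = 2) and p = 0.7 in the same exact permutation test. That difference of -5.13 points likewise turned positive without KO3 (0.217) or without WT1 (5.48). Of the cells that were not Myh11-high, 26 were collagen-rich and 12 were not, so this share largely followed the collagen-rich cells. Without them it was 91.25%, 100% and 83.3% in KO and 94.7% and 100% in WT libraries (p = 0.5 in the same exact permutation test). Tissue dissociation sets which cells enter the droplets, so these are shares of captured cells.

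Against basal myoepithelial cells (396 cells with at least 5 keratin and 3 smooth muscle UMIs), mural cells were higher in most tested genes of the contraction, pericyte, channel and vasoactive lists, and lower in Cnn1, Actg2 and Smtn of the contraction list. UMIs were summed per library and cell set and tested with edgeR within libraries, at an adjusted p under 0.05. Of 8603 genes, 35.3% were called, 18.8% higher and 16.4% lower in mural cells, the median gene at -0.01 on the log2 scale. Both cell sets were chosen by expression, so genes that go with the gate genes are tied to that choice, and the p-values say only that a difference recurred over the 5 libraries. In sums over cells, fewer expressing cells and less RNA per cell cannot be told apart.

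Of the contraction list outside the gate, 17 of 25 tested genes were higher and 3 were lower, with a median log2 difference of 1.01. The tropomyosin Tpm2 had 4334, 2561 and 1089.6 CPM in KO and 4736 and 3238 CPM in WT mural cells, against 1147 to 3016 CPM in basal cells. Its call (log2 difference 0.52, SE 0.16, edgeR adjusted p = 0.0222) and that of Tpm1 were lost without KO1, KO2, WT1 or WT2, with adjusted p of 0.0551 to 0.109 for Tpm1. Both calls were also lost by DESeq2 and when libraries were not kept as a block. That of Tpm1 was also lost with no filter on genes. Acta2, a gate gene, stood at 8321, 4336 and 2164 CPM in KO and 8457 and 5312 CPM in WT mural cells and at 3891 to 6853 CPM in basal cells. The 3 genes that were lower in mural cells, named after their values were seen, were Cnn1 (calponin), Actg2 (the enteric smooth muscle actin) and Smtn (smoothelin). Cnn1 had 224, 194 and 69.1 CPM in KO and 114 and 154 CPM in WT mural cells, against 481 to 864 CPM in basal cells (log2 difference -2.07, SE 0.26, edgeR adjusted p = 9.68e-05). Actg2 fell to 72.3, 219 and 38.4 CPM in KO and 31.0 and 34.0 CPM in WT mural cells, against 198 to 428 CPM in basal cells (log2 difference -2.22, SE 0.43, edgeR adjusted p = 0.00353). All mural libraries were below all basal ones for Cnn1, while Actg2 in KO2 reached the basal range.

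Synpo2, Ppp1r14a, Myocd, Filip1l and Mylk of this list were among the genes higher in mural cells. Synpo2, which bundles actin at the Z-disc, had 403, 447 and 199 CPM in KO and 362 and 242 CPM in WT mural cells, against 6.52 to 32.5 CPM in basal cells (log2 difference 4.26, SE 0.30, edgeR adjusted p = 1.85e-06). Ppp1r14a, an inhibitor of myosin phosphatase that holds contraction, had 651, 386 and 123 CPM in KO and 613 and 399 CPM in WT mural cells, against 11.7 to 35.9 CPM in basal cells (log2 difference 4.07, SE 0.23, edgeR adjusted p = 4.64e-07). For both, no mural library overlapped a basal one. Myocd, myocardin, the coactivator that drives the smooth muscle programme with serum response factor, had 94.6, 73.1 and 30.7 CPM in KO and 91.1 and 56.7 CPM in WT mural cells, against 0 to 2.78 CPM in basal cells (log2 difference 5.41). Filip1l, a filamin A interacting protein, had 1077, 568 and 284 CPM in KO and 793 and 505 CPM in WT mural cells, against 33.7 to 112 CPM in basal cells (log2 difference 3.46). Mylk, the kinase, was 1.27 higher on the log2 scale. Pln had 282, 35.5 and 30.7 CPM in KO and 229.7 and 227 CPM in WT mural cells and no UMI in basal cells, which makes it at least 349-fold higher when basal cells are set to the floor of 3 UMIs over the group. KO1, WT1 and WT2 held most of the Pln, and KO2 and KO3 were the low libraries.

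**Figure D3:**
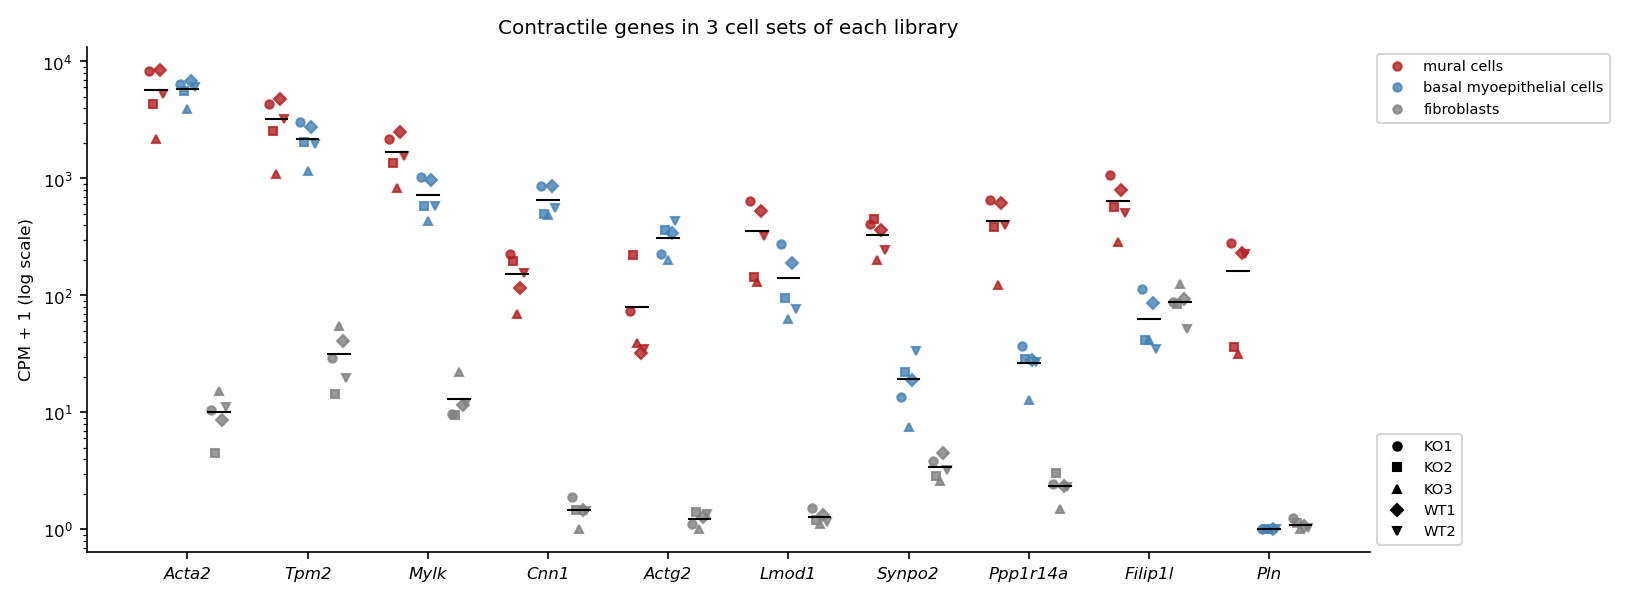
CPM plus 1, on a log scale, of 10 contractile genes in mural cells (red), basal myoepithelial cells (blue) and fibroblasts (grey), with 1 point per library, a marker shape per library and a black bar at the mean of the 5 libraries. Acta2 and Tpm2 overlap between mural and basal cells, Cnn1 and Actg2 are higher in basal cells, and Synpo2, Ppp1r14a, Filip1l and Pln are higher in mural cells, while fibroblasts are low in all of them but Filip1l.

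Serum response factor binds the CArG box, an A- and T-rich decamer, so the promoters of the contraction list with the smooth muscle genes of the gate were searched for it on both strands. RefSeq windows (GRCm38.p6, 250 bases before to 50 after each gene start) were at hand for 25 of 30 listed genes. Tagln, Myh11, Actg2 and Myocd had none and were not searched. Of the 25 genes with a window, 5 held a CArG box in one: Myl9, Myl6, Vcl, Filip1l and Srf. Over all 27025 genes with a window 1.81% did. Counted by window, it was 16.1% of the list's 31 and 1.63% of all 32851. The windows of Myl9, the light chain that the gate used, and of Filip1l, the member with the largest mural excess among the 5, are shown with the box in capitals (Myl9 at chr2:156775214-156775513 and Filip1l at chr16:57548992-57549291, both plus strand). A match describes the sequence, and binding was not measured.
Myl9: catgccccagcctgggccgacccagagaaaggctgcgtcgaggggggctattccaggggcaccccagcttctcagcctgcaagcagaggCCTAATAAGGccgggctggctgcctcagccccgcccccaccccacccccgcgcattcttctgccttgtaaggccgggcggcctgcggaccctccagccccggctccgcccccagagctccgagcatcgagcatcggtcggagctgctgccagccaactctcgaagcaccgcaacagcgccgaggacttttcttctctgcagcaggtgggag
Filip1l: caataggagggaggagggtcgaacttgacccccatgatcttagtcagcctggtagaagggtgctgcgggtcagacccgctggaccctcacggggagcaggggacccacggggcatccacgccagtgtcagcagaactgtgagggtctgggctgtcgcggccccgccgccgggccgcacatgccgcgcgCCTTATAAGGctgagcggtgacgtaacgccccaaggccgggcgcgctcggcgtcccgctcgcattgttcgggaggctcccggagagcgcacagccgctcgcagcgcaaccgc
The box starts 161 bases before the annotated start of Myl9 and 62 bases before that of Filip1l. Filip1l was higher in mural than basal cells in all 5 libraries, while Vcl did not pass the test (log2 difference 0.11, edgeR adjusted p = 0.715) and Myl6 did (log2 difference 0.68), so genes with a box did not move alike.

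The pericyte genes outside the gate set mural cells apart from basal cells most evenly: 18 of 21 tested genes were higher and 0 were lower, with a median log2 difference of 4.66. Cspg4, the NG2 proteoglycan, had 259, 100.2 and 76.7 CPM in KO and 263 and 134 CPM in WT mural cells, against 0 to 4.21 CPM in basal cells (log2 difference 6.22, SE 0.55, edgeR adjusted p = 2.95e-05). Ebf1, a transcription factor of the mesenchymal lineage, had 473, 321 and 545 CPM in KO and 484 and 339.9 CPM in WT mural cells, against 1.64 to 18.7 CPM in basal cells (log2 difference 5.33, SE 0.37, edgeR adjusted p = 2.66e-06). Abcc9 had 66.8, 144 and 184 CPM in KO and 51.7 and 68.0 CPM in WT mural cells, against 0 to 3.61 CPM in basal cells (log2 difference 6.15). Ebf1 was even across the libraries, while Abcc9 was highest in KO2 and KO3. Kcnj8 and Foxs1, a forkhead factor of pericytes, had no UMI in basal cells. Gja4, a gap junction protein of the vessel wall, had 93.2, 27.1 and 84.4 CPM in KO and 91.1 and 20.4 CPM in WT mural cells and 1 UMI in basal cells. The call of Steap4, a metalloreductase, was lost without the collagen-rich cells.

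Receptors and channels of vascular tone followed. In the list of vasoactive receptors and cyclic nucleotide signalling 17 of 21 tested genes were higher and 0 were lower, and in that of ion channels and calcium handling 18 of 22 tested genes were higher and 2 were lower. The soluble guanylate cyclase subunit Gucy1a1 had 477, 211 and 215 CPM in KO and 443 and 193 CPM in WT mural cells, against 1.64 to 10.4 CPM in basal cells (log2 difference 6.04, SE 0.37, edgeR adjusted p = 8.33e-07). Ednrb, an endothelin receptor, had 100.2, 136 and 161 CPM in KO and 126 and 58.9 CPM in WT mural cells, against 0 to 8.20 CPM (log2 difference 4.88, SE 0.48, edgeR adjusted p = 3.36e-05). S1pr3, a sphingosine-1-phosphate receptor listed with the PDGF genes, had 545, 211 and 169 CPM in KO and 892 and 392 CPM in WT mural cells, against 0 to 7.83 CPM (log2 difference 7.42, SE 0.70, edgeR adjusted p = 1.18e-04). Each of these was higher in mural cells in all 5 libraries. The vasopressin receptor Avpr1a had 128, 50.1 and 38.4 CPM in KO and 244 and 97.4 CPM in WT mural cells and 1 UMI in all basal cells. Of the phosphodiesterases that end cyclic nucleotide signals, Pde3a was 4.79 and Pde5a 3.96 higher on the log2 scale. Among channels, the tandem-pore potassium channel Kcnk3 had 73.7, 41.8 and 92.1 CPM in KO and 106 and 40.8 CPM in WT mural cells and Kcna5, a voltage-gated potassium channel, 97.4, 14.6 and 15.3 CPM in KO and 89.0 and 43.1 CPM in WT mural cells, each with 1 UMI in basal cells. Atp2b4, a plasma membrane calcium pump, was 5.03 higher. The 2 channel genes that were lower, named after their values were seen, were Orai1, the store-operated calcium channel (log2 difference -1.47), and Itpr2, an IP3 receptor (log2 difference -1.29).

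Over all 8603 genes, the 10 with the largest mural excess at 100 CPM or more were Pcp4l1, Apold1, Olfr558, Pln, Dgkb, Fabp4, Kcne4, Map3k7cl, Sparcl1 and Rgs7bp. Fabp4, a fatty acid binding protein known from adipocytes and capillary endothelium, had 2815, 1157 and 3115 CPM in KO and 4268 and 662 CPM in WT mural cells, against 1.30 to 4.17 CPM in basal cells (log2 difference 9.74, SE 0.30, edgeR adjusted p = 1.57e-08). Adipocyte markers summed to 0 to 38.4 CPM in the same cells, with Adipoq at 0, and endothelial markers to 0 to 92.1 CPM; their part in the Fabp4 level was not tested. Sparcl1, a matricellular protein, had 2887, 1349 and 1189 CPM in KO and 3018 and 2262 CPM in WT mural cells, against 1.20 to 7.40 CPM (log2 difference 8.94, SE 0.39, edgeR adjusted p = 3.63e-07). Pcp4l1 had no UMI in basal cells and was at least 734-fold higher, the olfactory receptor gene Olfr558 at least 399.7-fold and Dgkb, a diacylglycerol kinase, at least 366-fold. Kcne4, a potassium channel subunit, was 1637-fold (95% interval 293 to 64770.2) higher over the pooled UMIs, an interval of counting error only.

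The 10 genes with the largest deficit were Col17a1, Dsp, Krt15, Mia, Cdcp1, Col9a2, Chil1, Il17b, Lgals7 and Fxyd3. Col17a1, the hemidesmosome collagen, and Dsp, the desmosome protein desmoplakin, had no UMI in mural cells and were at least 190.5-fold and 197-fold lower than in basal cells, with the same floor of 3 UMIs over the group. Lgals7, galectin-7, had 1.39, 0 and 0 CPM in KO and 6.21 and 2.27 CPM in WT mural cells, against 798 to 1317 CPM in basal cells (log2 difference -8.68, SE 0.44, edgeR adjusted p = 3.60e-07). None of the 10 exceeded 7.67 CPM in any mural library.

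Against 7049 fibroblasts (cells with a Pdgfra UMI and at least 10 collagen and decorin UMIs), the contractile programme as a whole was higher in mural cells. Of 12271 genes, 29.0% were called, 13.6% higher and 15.5% lower in mural cells. The normalization placed the median gene at -0.11 on the log2 scale, so differences are to be read against that shift. The number called fell to 2211 without KO1, against 3564 with it. Of the contraction list 24 of 25 tested genes were higher and 0 were lower, and the median was 4.12. Lmod1 had 634, 144 and 130.4 CPM in KO and 528 and 324 CPM in WT mural cells, against 0.124 to 0.521 CPM in fibroblasts (log2 difference 10.24, SE 0.30, edgeR adjusted p = 8.11e-13). Myocd had 2 UMIs in all 7049 fibroblasts, and Synpo2 differed by 6.98 on the log2 scale. The gene of the list that did not pass was Srf, at 0.57. Of the ion channel list 21 of 23 tested genes were higher and 1 was lower, with a median of 4.79.

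The 10 genes with the largest excess over fibroblasts at 100 CPM or more were Xirp1, Sncg, Olfr558, Pln, Lmod1, Nrip2, P2rx1, Pcp4l1, Nrarp and Tinagl1. Sncg, gamma-synuclein, had 931, 386 and 338 CPM in KO and 1087 and 460.0 CPM in WT mural cells, against 0 to 0.311 CPM in fibroblasts (log2 difference 11.54, SE 0.59, edgeR adjusted p = 3.24e-06). P2rx1, the ATP-gated channel of smooth muscle, had 178, 71.0 and 69.1 CPM in KO and 219 and 54.4 CPM in WT mural cells, against 0 to 0.208 CPM (log2 difference 9.95, SE 0.36, edgeR adjusted p = 5.05e-12). Tinagl1, a basement membrane protein, had 429, 399 and 269 CPM in KO and 499 and 281 CPM in WT mural cells, against 0.124 to 2.02 CPM (log2 difference 8.43, SE 0.60, edgeR adjusted p = 1.09e-04). For each of them the lowest mural library lay above the highest fibroblast one. Xirp1, an actin-binding repeat protein of muscle, had 1 UMI in all fibroblasts and was 10857-fold (95% interval 1932 to 430411) higher over the pooled UMIs.

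Lower in mural cells were Smpd3, Akr1c18, Cd55, C3, Penk, Gas7, Enpp2, Pi16, Efemp1 and Mme. Penk, proenkephalin, had 13.9, 6.26 and 23 CPM in KO and 6.21 and 11.3 CPM in WT mural cells, against 76.2 to 228 CPM in fibroblasts (log2 difference -3.83, SE 0.30, edgeR adjusted p = 6.62e-08). Cd55, a complement inhibitor, had 61.2, 14.6 and 7.67 CPM in KO and 0 and 31.7 CPM in WT mural cells, against 153 to 429.6 CPM (log2 difference -4.12, SE 0.66, edgeR adjusted p = 0.0071). The call of the complement component C3 was lost without KO1, KO2 or KO3 (edgeR adjusted p = 0.0605 to 0.104). Those of Pi16 and Efemp1, adventitial fibroblast genes, were lost without KO1 or KO2, and also without KO3 for Pi16 (0.0547 to 0.0747) and without WT2 for Efemp1 (0.0968 to 0.11). That of Enpp2, autotaxin, was lost without KO1, KO2, WT1 or WT2 (0.0558 to 0.0811). Pi16 had 177, 267 and 46.0 CPM in KO and 6.21 and 559.7 CPM in WT mural cells, high in WT2, with 10 collagen-rich cells, and low in WT1, with 1.

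Pericyte genes were less exclusive against fibroblasts: 12 of 22 tested genes were higher and 4 were lower. Gucy1a1 (log2 difference 5.19), Ednrb (6.65), Cspg4 (5.07) and Foxs1 (5.55) were among the higher. The 4 lower ones, named after their values were seen, were Ebf2, Anpep, Cd248 and Postn. Ebf1 had 473, 321 and 545 CPM in KO and 484 and 339.9 CPM in WT mural cells and 476 to 545 CPM in fibroblasts, and its difference did not pass the test (log2 difference -0.36, edgeR adjusted p = 0.176). Postn, periostin, had 543, 879 and 3499 CPM in KO and 188 and 360.3 CPM in WT mural cells, with KO3 above the rest, against 2369 to 5263 CPM in fibroblasts. Of the vasoactive list 14 of 25 tested genes were higher and 5 were lower, with Ramp1, a subunit of the receptor for calcitonin gene-related peptide, at 5.06 among the higher, and the natriuretic peptide receptors Npr1 and Npr2, named after their values were seen, at -2.52 and -1.72 among the lower.

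Notch signalling, which the study's title names, was described through its receptors, ligands and targets outside the gate. Notch3, the gate gene, had 721, 532 and 445 CPM in KO and 666 and 401 CPM in WT mural cells, against 3.47 to 37.8 CPM in basal cells and 1.79 to 5.69 CPM in fibroblasts. Notch2 had 36.2, 39.7 and 46.0 CPM in KO and 47.6 and 36.3 CPM in WT mural cells; it was higher than in basal cells (log2 difference 1.49, SE 0.27, edgeR adjusted p = 0.00139) and lower than in fibroblasts (log2 difference -0.73). Notch1 had 69.6, 39.7 and 46.0 CPM in KO and 97.3 and 22.7 CPM in WT mural cells; it passed the test against fibroblasts (log2 difference 1.74, SE 0.27, edgeR adjusted p = 1.44e-04) and not against basal cells (edgeR adjusted p = 0.156). The fibroblast call was lost when libraries were not kept as a block, at an adjusted p of 0.0524. Per length of transcript these receptors cannot be ranked from 3′ counts, so each is compared with itself between cell sets.

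Of the ligands, Jag2 and Dll1 were lower in mural than in basal cells. Jag1 had 98.8, 81.4 and 76.7 CPM in KO and 151 and 92.9 CPM in WT mural cells, near the 46.5 to 118 CPM of basal cells, and was higher than in fibroblasts (log2 difference 1.17, SE 0.30, edgeR adjusted p = 0.0125). Jag2 had 1.39, 0 and 15.3 CPM in KO and 0 and 2.27 CPM in WT mural cells, against 39.4 to 79.8 CPM in basal cells (log2 difference -4.94, SE 0.59, edgeR adjusted p = 6.92e-05). Dll1, the ligand of basal cells and their progenitors, had no UMI in the mural cells of any library, against 28.7 to 147 CPM in basal cells, and Dll4, the endothelial ligand, had none in either.

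Of the target genes, Nrarp, Heyl and Hey2 were higher in mural cells than in either neighbour. Nrarp, a Notch target that feeds back to dampen the pathway, had 142, 167 and 38.4 CPM in KO and 205 and 199 CPM in WT mural cells, against 2.08 to 9.03 CPM in basal cells (log2 difference 4.89, SE 0.38, edgeR adjusted p = 3.33e-06) and 0.124 to 0.313 CPM in fibroblasts (log2 difference 9.13, SE 0.29, edgeR adjusted p = 1.96e-12). Heyl, a repressor induced by Notch3, had 103, 62.6 and 7.67 CPM in KO and 120.0 and 77.0 CPM in WT mural cells, against 0 to 6.52 CPM in basal cells (log2 difference 5.80, SE 0.89, edgeR adjusted p = 0.00182) and 0.856 to 2.43 CPM in fibroblasts (log2 difference 5.52, SE 0.44, edgeR adjusted p = 5.58e-06). Hey2, a related repressor of arteries, had 64.0, 8.35 and 0 CPM in KO and 29.0 and 22.7 CPM in WT mural cells, against 0 to 1.39 CPM in basal cells (log2 difference 4.96, SE 0.64, edgeR adjusted p = 1.73e-04) and 0 to 0.156 CPM in fibroblasts (log2 difference 7.97, SE 0.61, edgeR adjusted p = 1.15e-07). KO3 was the lowest mural library for all 3, and its 15 cells gave no Hey2 UMI. Hes1, the target shared by most tissues, had 245, 119 and 176 CPM in KO and 296 and 102 CPM in WT mural cells and passed neither test (edgeR adjusted p = 0.189 against basal cells and 0.141 against fibroblasts).

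Over the list, 5 of 25 tested genes were higher and 4 were lower against basal cells, a median of 0.02, and 8 of 25 tested genes were higher and 7 were lower against fibroblasts, a median of -0.00. Against basal cells the higher genes were Notch2, Hey2, Heyl, Nrarp and Dtx3, and the lower ones Jag2, Dll1, Adam10 and Spen (some named after their values were seen). Against fibroblasts the higher genes were Notch1, Jag1, Maml3, Hey1, Hey2, Heyl, Nrarp and Dtx3. Among the lower ones were Notch2, the transcription factor Rbpj (log2 difference -1.49), the gamma-secretase genes Ncstn and Aph1a, and the receptor-cleaving proteases Adam10 and Adam17. The called shares of all genes were 35.3% against basal cells and 29.0% against fibroblasts.

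**Figure D4:**
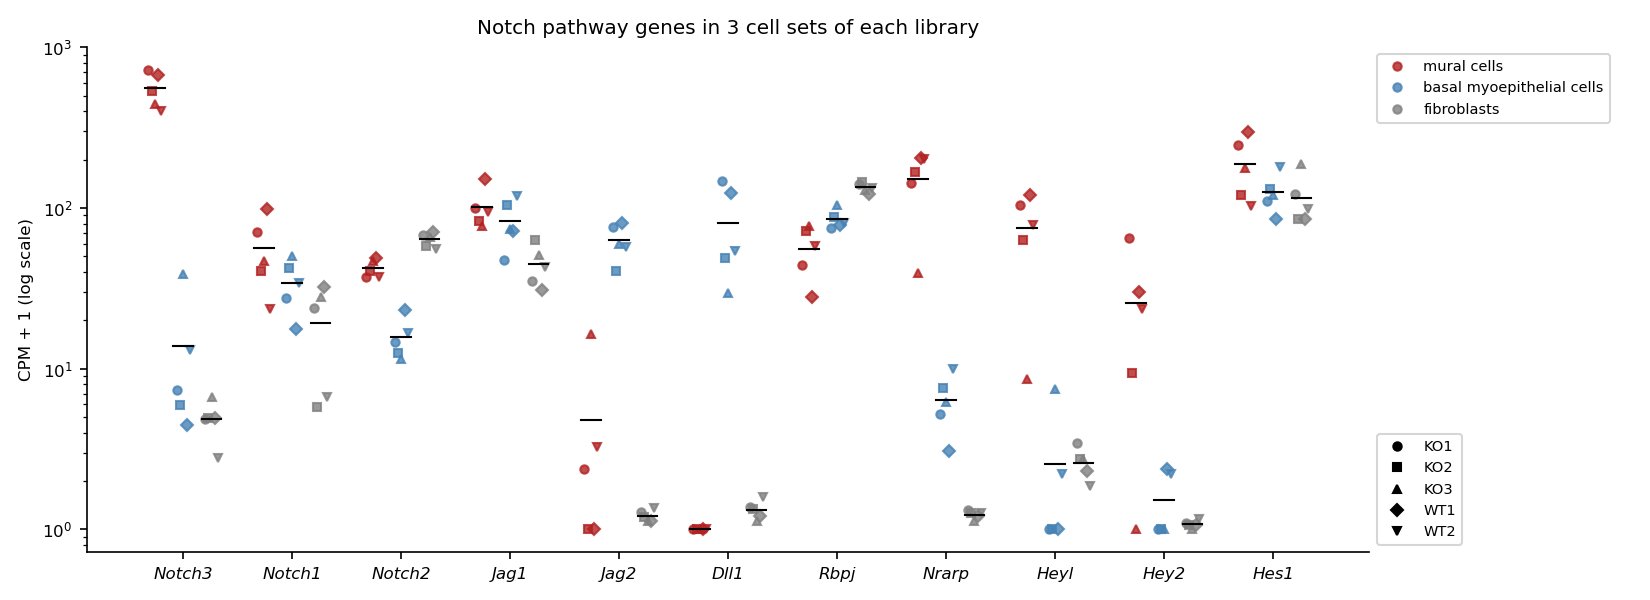
CPM plus 1, on a log scale, of 11 Notch pathway genes in mural cells (red), basal myoepithelial cells (blue) and fibroblasts (grey), with 1 point per library, a marker shape per library and a black bar at the mean of the 5 libraries. Notch3 (a gate gene), Nrarp, Heyl and Hey2 are highest in mural cells, Jag2 and Dll1 in basal cells, and Rbpj in fibroblasts.

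Promoters of the Notch list with Notch3 were searched on both strands for GTGGGAA, the core that Rbpj binds, in RefSeq windows (GRCm38.p6) at hand for 26 of 32 listed genes. It was found in 5 of the 26 genes (19.2%), Psen2, Aph1a, Spen, Lfng and Hey2, and in 7.25% of all 27025 genes with a window. Counted by window, it was 15.2% of the list's 33 and 6.38% of all 32851. The target genes Heyl, Hey1 and Hes1 had no window and were not searched. Hey2, the only called target gene among the 5, held 2 matches and is shown with both in capitals (chr10:30842734-30843033, minus strand, written 5′ to 3′ along the gene), the first as the reverse complement.
Hey2: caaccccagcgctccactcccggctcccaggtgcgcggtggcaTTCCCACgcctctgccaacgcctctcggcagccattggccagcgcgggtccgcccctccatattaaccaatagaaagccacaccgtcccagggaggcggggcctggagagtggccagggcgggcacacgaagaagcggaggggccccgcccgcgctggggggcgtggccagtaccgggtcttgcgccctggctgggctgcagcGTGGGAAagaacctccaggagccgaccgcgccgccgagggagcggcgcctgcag
The matches start 207 and 4 bases before the annotated start. They describe the sequence, and no occupancy was measured. Of the other 4 genes, Aph1a and Spen were each lower in 1 comparison and Psen2 and Lfng were not called in either.

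Growth factor pathways of the vessel wall came next. For PDGF and angiopoietin signalling the counts were 9 higher and 2 lower of 19 against basal cells and 7 higher and 6 lower of 21 against fibroblasts. Pdgfa, a PDGF ligand, had 461, 403 and 169 CPM in KO and 731 and 283 CPM in WT mural cells, against 109.6 to 160.4 CPM in basal cells (log2 difference 1.54, SE 0.23, edgeR adjusted p = 3.62e-04) and 1.73 to 3.58 CPM in fibroblasts (log2 difference 7.01, SE 0.28, edgeR adjusted p = 1.45e-11). Pdgfb, the ligand that recruits pericytes, had 13.9, 2.09 and 7.67 CPM in KO and 10.3 and 0 CPM in WT mural cells, against 19.7 to 62.5 CPM in basal cells (log2 difference -2.64, SE 0.41, edgeR adjusted p = 4.59e-04). Angpt1 and Angpt2, the ligands of the endothelial receptor Tek, were 4.49 and 5.60 higher than in basal cells on the log2 scale. Mural cells thus had more Pdgfa than either neighbour, while Pdgfb was lower than in basal cells. Flt1, a VEGF receptor best known from endothelium and named after its values were seen, had 18.1, 16.7 and 161 CPM in KO and 0 and 2.27 CPM in WT mural cells. KO3 was far above the rest. It also had the highest summed level of endothelial markers (92.1 CPM, against 0 to 27.2 CPM in the others). The part of endothelial RNA in its Flt1 value was not tested.

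For TGF-beta and BMP signalling the counts were 13 higher and 3 lower of 25 against basal cells and 9 higher and 7 lower of 26 against fibroblasts (9 higher and 11 lower without the collagen-rich cells). Id3, a target of BMP signalling that inhibits helix-loop-helix factors, had 1113, 653 and 514 CPM in KO and 1838 and 779.5 CPM in WT mural cells, against 42.1 to 134 CPM in basal cells (log2 difference 3.43, SE 0.29, edgeR adjusted p = 7.60e-06) and 137 to 465 CPM in fibroblasts (log2 difference 1.82, SE 0.38, edgeR adjusted p = 0.00958). Tgfb3, a ligand, was 2.07 and 2.67 higher on the log2 scale, and Tgfbr2, a receptor, was lower than in fibroblasts (log2 difference -2.21). Id3 was highest in WT1 and lowest in KO3, and every mural library exceeded every basal one.

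Counts of matrix genes moved with the collagen-rich cells. Against basal cells 19 of 29 tested genes were higher and 0 were lower for fibrillar and elastic matrix, and against fibroblasts 2 of 26 tested genes were higher and 4 were lower. Without the collagen-rich cells the counts were 7 higher and 4 lower of 27 against basal cells and 2 higher and 21 lower of 26 against fibroblasts. By DESeq2 on all mural cells they were 25 higher and 0 lower against basal cells and 2 higher and 15 lower against fibroblasts. Over all genes DESeq2 called 1414 higher and 1238 lower of 8603 against basal cells. Against fibroblasts it called 1806 higher and 1625 lower of 12271. The basal calls of Col1a1, Col1a2, Col3a1 and Fn1 were lost without the collagen-rich cells, with Col1a1 at a log2 difference of 0.25 instead of 4.30; that of Col1a2 was also lost without KO1 or WT2 (edgeR adjusted p = 0.0541 to 0.0641) and that of Fn1 without KO3 or WT2 (0.0752 to 0.104). Adamts4, a proteoglycan-cleaving protease, kept its call without them and had 771, 1292 and 2133 CPM in KO and 1716 and 968 CPM in WT mural cells, against 11.7 to 34.0 CPM in basal cells (log2 difference 6.12, SE 0.32, edgeR adjusted p = 4.15e-07) and 55.7 to 189 CPM in fibroblasts (log2 difference 3.54, SE 0.23, edgeR adjusted p = 1.19e-08). Adamts1, a related protease, was 3.14 and 1.62 higher on the log2 scale. In every library Adamts4 was higher in mural cells than in either neighbour.

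For the basement membrane, which pericytes share with endothelium, 15 of 23 tested genes were higher and 2 were lower against basal cells and 7 of 24 tested genes were higher and 9 were lower against fibroblasts. Without the collagen-rich cells they were 9 higher and 3 lower of 21 against basal cells and 8 higher and 11 lower of 24 against fibroblasts. Itga7, a laminin receptor subunit of muscle, had 173, 60.5 and 61.4 CPM in KO and 190.4 and 74.8 CPM in WT mural cells, against 1.20 to 3.17 CPM in basal cells (log2 difference 5.88, SE 0.32, edgeR adjusted p = 3.35e-07) and 3.95 to 5.65 CPM in fibroblasts (log2 difference 4.44, SE 0.36, edgeR adjusted p = 6.31e-06). Itga1, a collagen receptor subunit, was 2.73 and 4.18 higher on the log2 scale. The laminin chain Lama5 was higher than in fibroblasts (log2 difference 6.22) and Lama4 lower (-1.69), and both were higher than in basal cells (1.16 and 2.46). The collagen IV genes Col4a1 and Col4a2 passed neither test.

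Of chemokine and inflammatory genes, 9 of 25 tested genes were higher and 1 was lower against basal cells and 1 of 25 tested genes was higher and 8 were lower against fibroblasts. Without the collagen-rich cells the counts were 7 higher and 4 lower of 23 against basal cells and 2 higher and 8 lower of 25 against fibroblasts. The gene higher than in fibroblasts, named after its value was seen, was the cytokine Il6. It had 243, 1154 and 591 CPM in KO and 513 and 446 CPM in WT mural cells, with KO2 the highest library, against 0 to 11.8 CPM in basal cells (log2 difference 6.68, SE 0.63, edgeR adjusted p = 1.40e-04) and 93.4 to 304 CPM in fibroblasts (log2 difference 1.94, SE 0.21, edgeR adjusted p = 3.54e-06). MHC class I and interferon genes counted 11 higher and 0 lower of 30 against basal cells and 1 higher and 16 lower of 30 against fibroblasts, and 8 higher and 3 lower of 29 against basal cells without the collagen-rich cells. B2m, the light chain of MHC class I, was -1.09 on the log2 scale against fibroblasts, and H2-K1, a heavy chain, -1.25. H2-K1 had 213, 409 and 445 CPM in KO and 381 and 339.9 CPM in WT mural cells, against 498 to 1969.9 CPM in fibroblasts.

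Oxidative phosphorylation counted 18 higher and 0 lower of 28 against fibroblasts (median 0.73) and 2 higher and 1 lower of 27 against basal cells (median 0.20), and median mitochondrial UMI shares were 3.59% to 8.94% in mural cells and 1.63% to 2.34% in fibroblasts. Cox8a, a cytochrome oxidase subunit, had 1187, 659.7 and 591 CPM in KO and 1016 and 775 CPM in WT mural cells, against 273 to 354 CPM in fibroblasts (log2 difference 1.27, SE 0.20, edgeR adjusted p = 1.29e-04). Hypoxia and glycolysis counted 9 higher and 2 lower of 17 against fibroblasts and 3 higher and 3 lower of 17 against basal cells. Without the collagen-rich cells, the counts against basal cells were 5 higher and 2 lower of 27 for oxidative phosphorylation and 5 higher and 4 lower of 16 for hypoxia and glycolysis. Epas1, the hypoxia-inducible factor 2 alpha subunit of vessel cells, had 678, 443 and 721 CPM in KO and 857 and 401 CPM in WT mural cells, against 50.9 to 125 CPM in basal cells (log2 difference 3.00, SE 0.24, edgeR adjusted p = 4.68e-06) and 11.1 to 53.4 CPM in fibroblasts (log2 difference 4.48, SE 0.24, edgeR adjusted p = 6.82e-10). Epas1 overlapped between the genotype labels and was above both neighbours in all 5 libraries.

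The remaining 4 lists close the comparison with both neighbours. Regulators of G protein signalling counted 7 higher and 1 lower of 14 against basal cells and 4 higher and 2 lower of 18 against fibroblasts, and without the collagen-rich cells 7 higher and 2 lower against basal cells and 4 higher and 5 lower against fibroblasts. Rgs7bp, which anchors such a regulator at the membrane, had 253, 167 and 123 CPM in KO and 253 and 170.0 CPM in WT mural cells, against 3.46 to 8.05 CPM in fibroblasts (log2 difference 4.88, SE 0.23, edgeR adjusted p = 1.14e-10) and 0 to 1.06 CPM in basal cells. Heat shock genes counted 4 higher and 5 lower of 18 against basal cells and 4 higher and 3 lower of 18 against fibroblasts, among the higher ones the small heat shock protein of smooth muscle Hspb6 (log2 difference 2.68 and 6.21). Immediate-early genes, which dissociation of tissue is known to induce, counted 13 higher and 2 lower of 23 against basal cells and 8 higher and 4 lower of 23 against fibroblasts. Targets of YAP and TEAD counted 3 higher and 4 lower of 15 against basal cells and 6 higher and 1 lower of 17 against fibroblasts. Ccn2, the textbook target, was lower than in basal cells (log2 difference -1.99) and higher than in fibroblasts (1.93), the second call being lost without the collagen-rich cells. Setting genes without a UMI on one side to their bound left the list medians given here unchanged.

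Myh11-high cells were also compared with members of the gate without Myh11. Only KO2 (31 against 7 cells) and WT2 (23 against 9 cells) had 5 cells on both sides, so each value rests on 1 mouse per label, and all 16 cells without Myh11 in those libraries were collagen-rich. In KO2 and WT2 these cells had 33.9 and 10.2 CPM of Acta2, against 5971 and 9585 CPM in Myh11-high cells. Fibroblasts had 3.46 and 10.2 CPM. Col1a1 stood at 25601 and 23845 CPM in the cells without Myh11. The contrast is therefore not read as a division within mural cells. Of 3483 genes, gate genes other than Myh11 among them, 22% were called, 9.47% higher and 12.5% lower in Myh11-high cells. DESeq2 called 335 genes in place of 765, 114 higher and 221 lower. It did not call 13 of the 20 genes named here: Sorbs2, Sncg, Pcp4l1, Tinagl1, Lmod1, Bcam, Nrarp, Parm1 and Map3k7cl on the higher side (DESeq2 adjusted p = 0.191 to 0.328) and Cilp, Tgfbi, Rbp4 and Tspan11 on the lower (0.0596 to 0.192). Of the contraction list 21 of 23 tested genes were higher and 0 were lower, and of the fibrillar matrix list 1 of 29 tested genes was higher and 23 were lower; by DESeq2 the counts were 16 higher and 0 lower, and 1 higher and 23 lower. Cilp, Tgfbi, Rbp4, Mfap4, Tspan11, Smoc2, Fmo2, Hsd11b1, Inmt and Fxyd6 had the largest deficits in Myh11-high cells. Cilp, a cartilage matrix protein, had no UMI there and 999 and 909 CPM in the cells without Myh11 of KO2 and WT2. On the other side stood Sorbs2, Tagln, Sncg, Pcp4l1, Tinagl1, Lmod1, Bcam, Nrarp, Parm1 and Map3k7cl, of which the gate gene Tagln is a description. Nrarp had 233 and 360.1 CPM in Myh11-high cells of KO2 and WT2 and no UMI in those without Myh11. The gate gene Rgs5 stood at 1024 and 110.5 CPM in Myh11-high cells of KO2 and WT2, against 93.2 and 15.2 CPM in those without Myh11.

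Between the genotype labels, no gene passed the test in mural cells. Of 6089 genes tested with edgeR's quasi-likelihood test, 0.0% were called, and 77 (1.26%) lay under 0.05 before adjustment. DESeq2 likewise gave 0 calls, and 57 genes before adjustment. In 14.1% of genes the 3 KO and 2 WT libraries did not overlap, 9.54% higher and 4.53% lower in KO. In simulated counts of this comparison the test recovered 3.45% of genes changed 2-fold, 20.8% of those changed 4-fold and 76.2% of those changed 8-fold, so most changes of 2-fold or 4-fold would have been missed. With no filter on genes 11 of 15236 genes were called, 7 higher and 4 lower in KO. Leaving out any 1 KO library gave no calls. Some genes were called without the libraries numbered 2. WT1 is then the only WT library, so that fit rests on 1 WT mouse and is not read as a genotype result.

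The genes with the smallest unadjusted p and libraries that did not overlap are given as values that did not pass (edgeR adjusted p = 1.0 for each). Rgs16 had 103, 144 and 261 CPM in the libraries labelled KO, against 22.8 and 43.1 CPM in the WT libraries (log2 difference 2.26, SE 0.56). It is the gene that went with Rgs5 among mural cells, and within the Rgs5-positive cells it had 424, 321 and 660.1 CPM in KO and 46.5 and 218 CPM in WT libraries. Rhou, a small GTPase, had 18.1, 64.7 and 84.4 CPM in the libraries labelled KO, against 2.07 and 6.80 CPM in the WT libraries (log2 difference 3.40, SE 0.92). Vtn had 34.8, 89.8 and 46.0 CPM in the libraries labelled KO, against 18.6 and 6.80 CPM in the WT libraries (log2 difference 2.08, SE 0.64). The collagen-modifying enzyme Plod2 and the chemokine Cxcl2 were the others on the higher side. On the lower side, Cstb, a cathepsin inhibitor, had 128, 307 and 138 CPM in the libraries labelled KO, against 522 and 752 CPM in the WT libraries (log2 difference -1.79, SE 0.46), and Sphk1, which makes sphingosine-1-phosphate, had 19.5, 33.4 and 23 CPM in the libraries labelled KO, against 70.4 and 83.8 CPM in the WT libraries (log2 difference -1.65, SE 0.40). Ncapd3, a condensin subunit, Rbm18 and Elmsan1 were the others. No overlap between the labels was a condition for naming these 10 genes, so it is not a result.

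**Figure D5:**
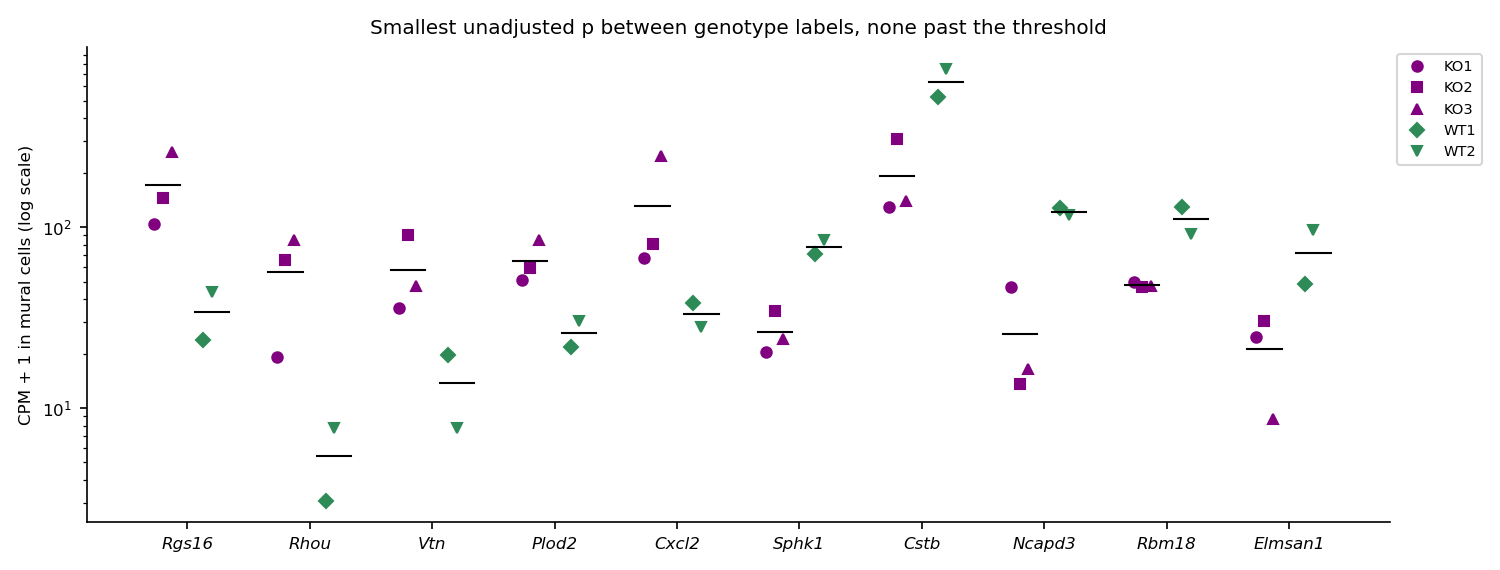
CPM plus 1 in mural cells, on a log scale, of the 5 genes higher and the 5 lower in KO with the smallest unadjusted p among genes whose libraries did not overlap, with purple points for KO1 to KO3, green points for WT1 and WT2 and a black bar at each group mean. None of the 10 passed the adjusted threshold.

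By list, 0 genes passed in either direction between the labels in each of the 17 lists, and the medians are descriptions beside 0.01 for all genes. The contraction list had a median log2 difference of -0.32 (KO over WT), with 5 of 24 genes positive, and -0.10 without KO3. Oxidative phosphorylation had -0.28, with 2 of 27 positive. Chemokines had 0.90, with 17 of 23 positive: Cxcl1 had 221, 2893 and 752 CPM in KO and 224 and 401 CPM in WT mural cells, and KO2 carried most of it. Fibrillar matrix had 0.27, and the value was 1.36 without the collagen-rich cells and -0.09 without KO3. The Notch pathway had -0.07, with 8 of 20 positive. Of the gate genes, Rgs5 had 974, 758 and 1228 CPM in KO and 863 and 68.0 CPM in WT mural cells, Des 387, 165 and 307 CPM in KO and 453 and 181 CPM in WT mural cells and Rgs4 527, 163 and 161 CPM in KO and 559 and 215 CPM in WT mural cells. Des and Rgs4 were highest in KO1 and WT1, and Rgs5 was lowest in WT2. The Notch targets Nrarp, Heyl and Hey2 stood at log2 differences of -0.80, -0.67 and 0.17 and Notch3 at 0.04, none of them past the threshold. The same libraries differed in their share of collagen-rich cells, in mitochondrial UMIs (medians of 7.99%, 3.59% and 4.15% in KO and 8.94% and 6.73% in WT mural cells) and in the share with Rgs5, and the part of these in the medians was not tested.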

How the data were processed

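Droplet 3′ single-cell libraries of 5 mammary glands were deposited by the authors as raw UMI counts for each gene in each barcode. Per the file headers, Cell Ranger 6.1.2 made the matrix of KO3 alone and version 6.0.2 the other 4. The build was mm10, per the submitters' processing notes. How barcodes were called as cells, and with which annotation, is not stated in the labels. Libraries held 24197344 to 87577099 UMIs over 3359 to 11040 barcodes.

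Cells were gated as described at the start of the results, and no doublet caller was run. Basal myoepithelial cells had at least 5 UMIs of Krt5, Krt14 and Krt17 and 3 of Acta2, Tagln and Myl9, with no Pecam1 or Ptprc. Fibroblasts had a Pdgfra UMI, at least 10 UMIs of Col1a1, Col1a2 and Dcn and under 5 keratin UMIs, with no Pecam1, Ptprc or Epcam, and were not mural cells. UMIs were summed per library and cell set and tested with edgeR 4.0.16 (filterByExpr, TMM, robust quasi-likelihood, Benjamini-Hochberg threshold 0.05) in R 4.3.3, with the library as a block between cell sets and without a block between genotypes. Levels are plain CPM, and log2 differences carry the TMM factors. SE is the log2 difference divided by the square root of F. Against basal cells, genes of the mural and basal gates were fitted but not counted as called. Against fibroblasts, genes of the fibroblast gate were left out of the counts too. Between Myh11 classes only Myh11 was left out, and between genotypes no gene was. Shares were compared with an exact permutation test in SciPy 1.17.1. DESeq2 1.42.0 was an alternative. The model was tested on simulated counts with known changes. Intervals and floors (3 UMIs) cover counting error only.

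Between genotypes, the named genes were up to 5 per direction by the smallest unadjusted p, with ranges apart and at least 50 CPM, since none passed the threshold. Between cell sets they were up to 10 per direction with the largest change, of 1 sign in all libraries and at least 100 CPM. From each gene list they were the 6 with the highest mean in mural cells and up to 6 past the threshold. The members and lists were chosen with earlier results of these data known. Promoter windows are RefSeq's, GRCm38.p6. Other alternatives were DESeq2 size factors, no gene filter, leaving out each library, other mitochondrial, gene and marker limits, removal of collagen-rich cells, Myh11-high cells alone, and fits with or without a block.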

Additional observations from a re-analysis of the deposited data

Results flagged for a closer look

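In 40 genes named between cell sets, 2 had 1 library far from the other 4, by Dixon's test on the per-library log2 difference with 10 CPM added to each side. Chance alone flags about 1 in 20 such groups. Map3k7cl, a gene higher in mural than basal cells, differed by 1.72 in KO3, against 3.93 to 4.68 in the other 4 libraries. Nrarp, the Notch target, differed between mural cells and fibroblasts by 2.26 in KO3, against 3.88 to 4.40 in the other 4 libraries. KO3 has 15 mural cells and 130327 mural UMIs, the fewest of the 5, and the part of this in either value was not tested.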

How the results depend on the processing

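The difference in the share of mural cells (KO minus WT) ran from -0.347 to 0.285 points when 1 library was left out, and it was positive without KO3 (0.0394), without WT1 (0.285) and with a mitochondrial limit of 10% (0.102). The difference in the share of Myh11-high cells ran from -15.7 to 5.48 points, and it was positive without KO3 (0.217), without WT1 (5.48) and with 1 Myh11 UMI as the limit (3.55). Between genotypes 0 genes were called when any 1 library was left out, 11 with no filter on genes, 3 with a replicate block and 65 without the libraries numbered 2, an alternative chosen after seeing the data. The replicate numbers pair libraries only by number: deviations from the group means correlated at r = 0.507 between KO1 and WT1 and 0.308 between KO2 and WT2, over 2 pairs. With 2 WT libraries the deviations of WT1 and WT2 mirror each other. KO1 with WT2 and KO2 with WT1 thus gave -0.507 and -0.308 by construction. KO3, which has no partner, gave 0.207 with WT2, so the values do not settle whether the numbers mark pairs. Against basal cells 2228 to 2874 genes were called when 1 library was left out, and against fibroblasts 2211 to 3680, the lowest without KO1. Between Myh11-high cells and cells without Myh11, DESeq2 called 335 genes in place of 765, and Klf2 turned to 0.0351 on the log2 scale with at least 3 cells per side. For that comparison, leaving out a library and removing collagen-rich cells were not run, since 1 library or no cell would remain on a side. The cause of these changes was not tested.

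Recovery in simulated counts differed between the comparisons, which also differ in depth, in the number of libraries and in spread, and these were not separated. There 2-fold changes were recovered for 3.45% of changed genes between genotypes, 40.7% against basal cells, 29.1% against fibroblasts and 3.64% between Myh11 classes. Alternatives were run for the genes that the naming rules picked and not for other genes named in the text.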
